A study of Mus musculus with 4 samples.

Results

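The 32 genes described here encode the proteins that take up, activate and oxidise fatty acids and use ketone bodies in the mouse heart. They were chosen by name, as genes of fatty acid uptake, activation, the carnitine shuttle, beta oxidation, the electron transfer flavoprotein and ketone use, and all 32 were among the 15746 genes with deposited values. RNA-seq was performed on 4 libraries from the hearts of adult WT mice, 2 of isolated mitochondria and 2 of the tissue minus mitochondria, called rest. The labels name no transgene, drug or strain. According to the methods, rest is the debris that was spun down from the heart homogenate at low speed, and the cytosol was not sequenced as a fraction of its own. The isolated mitochondria were treated with digitonin and RNase A before RNA was extracted, and the fragmentation time was adjusted for the mitochondrial samples. The comparison asks which RNAs are found with the mitochondria and which with the rest of the tissue. Whether equal replicate numbers mark shared hearts, and whether the 2 libraries of a fraction stem from separate animals, is not labelled, so p-values measure only the spread between these samples, which may be technical.

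The heart draws most of its ATP from fatty acids. Long-chain fatty acids enter the cardiomyocyte, are bound by a cytosolic carrier and are joined to coenzyme A at the outer mitochondrial membrane. The carnitine shuttle then carries the acyl group through the inner membrane, where a cycle of dehydrogenation, hydration, dehydrogenation and thiolysis releases acetyl-CoA. Electrons from the acyl-CoA dehydrogenases pass through the electron transfer flavoprotein (ETF) to ubiquinone. Ketone bodies from the liver are turned to acetyl-CoA by a short route in the same compartment. All of these proteins are encoded in the nucleus, and their mRNAs are translated by cytosolic ribosomes.

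Values are normalized counts, that is, the read count of a gene divided by a size factor of its library and rounded. A single read was worth 3.87 normalized counts in mitochondrial replicate 1 and 2.55 in mitochondrial replicate 2, which corresponds to about 47400000 and 32100000 reads on genes. There, 3 reads correspond to 11.6 and 7.65 normalized counts. In the rest libraries a read was worth less than 1 normalized count, and their depth is not known. Genes of the mitochondrial chromosome took 97.6% and 93.5% of the normalized counts in isolated mitochondria, against 63.2% and 67.5% in rest. The cardiomyocyte marker Myh6 stood at 128576 to 184487 normalized counts in the 4 libraries, and the nuclear RNA Malat1 at 13226 and 8375 in mitochondria against 40240 and 43742 in rest.

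Of the 32 members, Fabp3 and Acot13 rose in the mitochondrial fraction and none fell at an adjusted p-value under 0.05 (limma, 12150 genes tested). Across all tested genes, 2.16% were called higher and 1.39% lower, beside 6.25% of the members, which is a count of only 2. With any single library left out, no gene of all those tested was called, so that the loss of these 2 calls says nothing about the genes themselves, and the log2 fold changes were 1.54 to 1.79 for Fabp3 and 1.42 to 1.66 for Acot13 (limma). Without adjustment, 16 members had a limma p-value under 0.05 in the higher and 2, Acsl1 and Cpt1a, in the lower direction. Of all 12150 tested genes, 1718 met this in the higher and 1965 in the lower direction. Both mitochondrial values lay above both rest values in 20 members (62.5%), which compares with 27.7% of all tested genes. Both mitochondrial values lay below both rest values in 4 members (12.5%), Cd36, Acsl1, Cpt1a and Cpt1b, which compares with 33.4% of all tested genes. The groups overlapped in the other 8 members, Lpl, Crat, Mlycd, Acadvl, Hadha, Hadhb, Acot2 and Bdh1. The median log2 fold change of the members was 0.61, while that of all tested genes was -0.14, and the members ranged from -2.19 to 1.67. These directions refer to the deposited scaling, which sets the bulk of nuclear genes near 0, and they turn negative when libraries are scaled to their totals, as described near the end. In bulk RNA of a fraction, copies per cell, the mixture of cells, the place within the cell and the preparation cannot be told apart. The preparation includes the digitonin, RNase A and adjusted fragmentation of the mitochondrial samples.

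**Figure D1:**
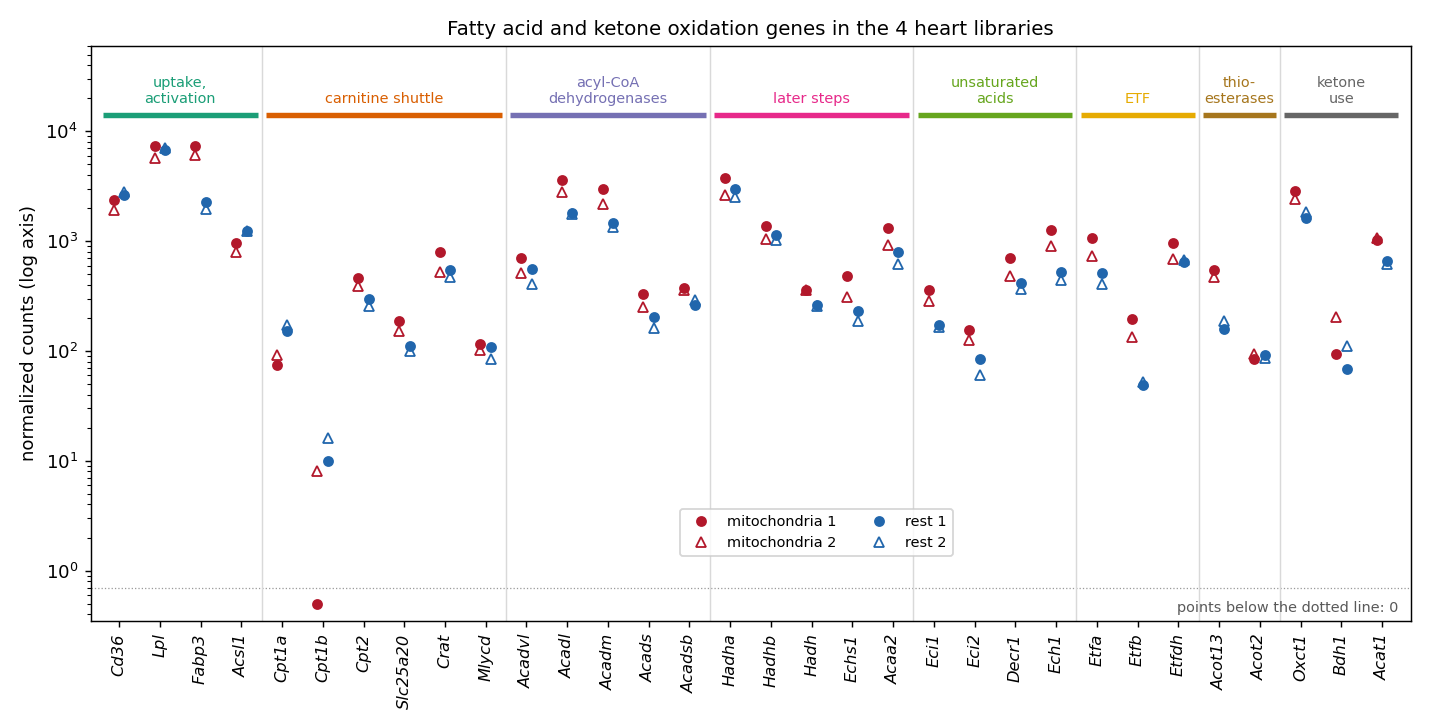
Normalized counts (log axis) of the 32 members in each of the 4 libraries, with filled circles for replicate 1 and open triangles for replicate 2 of the mitochondrial (red) and rest (blue) fractions, grouped by role. Fabp3, Etfb and Acot13 show a wide gap between the fractions, with mitochondrial values of 6145 and above, 133 and above and 469 and above, while Cpt1b lies at 0 to 16 in all libraries.

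In mitochondrial replicate 1, 26 of the 32 members had a higher value than in mitochondrial replicate 2, while this was so for 50.4% of all tested genes. The exceptions were Cpt1a, Cpt1b, Hadh, Acot2, Bdh1 and Acat1. Rest replicate 1 was likewise above rest replicate 2 in 21 of the 32 members (65.6%), against 48.5% of all tested genes. Summed over the members, the libraries held 44223 and 34834 normalized counts in mitochondria and 28861 and 27803 in rest. These sums are 0.991% and 0.657% of the normalized counts of all nuclear genes in mitochondria, and 1.13% and 0.997% in rest. As a share of the tested protein-coding nuclear genes alone, they were 2.03% and 1.91% in mitochondria and 1.44% and 1.37% in rest, so the direction of the share depends on whether non-coding loci are counted.

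Among the genes of uptake and activation, Fabp3 was the member with the largest fold change. Fabp3 encodes the heart fatty acid binding protein, which carries fatty acids through the cytosol. Fabp3 stood at 7332 and 6145 normalized counts in mitochondria, replicates 1 and 2 in this order as in all pairs of values here, and at 2291 and 1954 in rest. The lower mitochondrial value was thus far above the higher rest value. Fabp3 rose 3.17-fold in mitochondria (log2 fold change 1.67, SE 0.204, limma adjusted p = 0.0427). Per kilobase of its principal transcript, which has 823 bases, it was also the most abundant member in either fraction, with 8188 normalized counts per kb in mitochondria and 2579 in rest.

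Fabp3 (GRCm38, chr4:130308595-130315463, + strand) has a processed pseudogene, Fabp3-ps1 (chr10:86731987-86732388, - strand), and 24.3% of the 75-base words of the Fabp3 exons also occur in it. The coding sequence and the pseudogene are 99.2% identical over 399 aligned bases, and 56% of all 75-base windows do not differ at all, so that a read of the sequenced length often cannot be placed. The window with the most differences, coding bases 260 to 334, is shown to make clear how little separates a read of Fabp3 from one of the pseudogene, with the differing bases in capitals (GENCODE M21 transcripts).
Fabp3: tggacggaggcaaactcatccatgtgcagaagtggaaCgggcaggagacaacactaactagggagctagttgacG
Fabp3-ps1: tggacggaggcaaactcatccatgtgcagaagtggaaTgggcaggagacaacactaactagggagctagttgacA

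Fabp3-ps1 was listed at 1979 and 1923 normalized counts in mitochondria and at 549 and 653 in rest (log2 fold change 1.70, SE 0.173, limma adjusted p = 0.0427). Its fold change was thus close to that of Fabp3. The ratio of Fabp3 to the pseudogene was 3.7 and 3.2 in mitochondria and 4.17 and 2.99 in rest, which overlap. Reads from either locus cannot be told apart where the sequences do not differ, and 19.6% of the Fabp3 exon bases overlap exons on the opposite strand, among them those of Zcchc17. Zcchc17 was listed at only 46 and 61 normalized counts in mitochondria and 46 and 49 in rest.

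The other genes of uptake and activation did not pass the test. Lpl, the lipoprotein lipase that frees fatty acids from circulating triglycerides at the capillary wall, stood at 7335 and 5666 in mitochondria and 6751 and 7119 in rest. The groups overlapped, with a log2 fold change of -0.10 (SE 0.225). Cd36, the fatty acid translocase of the cell surface, stood at 2374 and 1939 in mitochondria and at 2628 and 2804 in rest (log2 fold change -0.34, SE 0.19). Acsl1, the acyl-CoA synthetase of the outer mitochondrial membrane, stood at 953 and 793 in mitochondria and at 1242 and 1244 in rest (log2 fold change -0.52, SE 0.175, limma adjusted p = 0.138). For Cd36 and Acsl1 both mitochondrial values lay below both rest values. Within a library the ratio of Fabp3 to Cd36 was 3.09 and 3.17 in mitochondria and 0.872 and 0.697 in rest. Such ratios are of normalized counts that are not corrected for length, so they compare the fractions and not the levels of the 2 genes.

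Lpl acts at the endothelium, which also expresses Cd36. All 7 endothelial markers measured had negative fold changes (median -0.84, median transcript length 4091 bases), none of which passed the test. Their summed level was 1972 and 1746 normalized counts in mitochondria and 3504 and 3135 in rest, with Pecam1 at 190 and 240 against 449 and 409. The part of the endothelium in the values of Lpl and Cd36 was not tested. Of 5 adipocyte markers only Cfd had values, and these were 0 and 5 in mitochondria and 3 and 8 in rest.

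The carnitine shuttle held the members with the lowest fold changes. Cpt1a, the liver isoform of the carnitine palmitoyltransferase of the outer membrane, stood at 74 and 92 normalized counts in mitochondria and at 151 and 172 in rest. Both mitochondrial values lay below both rest values, and the log2 fold change was -0.96 (SE 0.22), 1.94-fold higher in rest, with a limma adjusted p of 0.0723. Cpt2, the partner enzyme on the inner membrane, stood at 461 and 388 in mitochondria and at 297 and 255 in rest (log2 fold change 0.62, SE 0.191, limma adjusted p = 0.118). Cpt1a and Cpt2 thus lay on opposite sides, though neither passed the test. Within a library the ratio of Cpt1a to Cpt2 was 0.161 and 0.237 in mitochondria and 0.508 and 0.675 in rest. The ratio does not depend on the scaling of the libraries. The principal transcript has 4317 bases for Cpt1a and 2372 for Cpt2, and the part of transcript length in this ratio was not tested.

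Cpt1b, the muscle isoform, is known as the main isoform of the adult heart, but it was listed at 0 and 8 normalized counts in mitochondria and at 10 and 16 in rest. The value in mitochondrial replicate 2 corresponds to 3 reads, and no read in mitochondrial replicate 1 allows a level of up to 11.6 normalized counts. The fitted log2 fold change of -2.19 (SE 1.20) depends on the pseudocount and changed from -3.77 to -0.60 when a library was left out. Cpt1a took 100% and 92% of the normalized counts of both isoforms in mitochondria, and 93.8% and 91.5% in rest. Per kilobase the shares were 100% and 88.5% in mitochondria and 91% and 87.8% in rest.

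These shares bear on how Cpt1b can be counted. Cpt1b lies on chr15:89416405-89425863 (GRCm38, - strand), and GENCODE M21 places the gene Gm44502 on chr15:89416405-89429696 on the same strand, joining upstream exons to exons of Cpt1b. Of the Cpt1b exon bases, 81.4% are also exons of Gm44502, and 92.1% of its 75-base words occur there. The authors excluded reads that overlap several genes, so most reads of Cpt1b could not be counted if their annotation held this gene. Gm44502 itself had no value here. The level of Cpt1b and its share against Cpt1a are therefore uncertain.

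**Figure D2:**
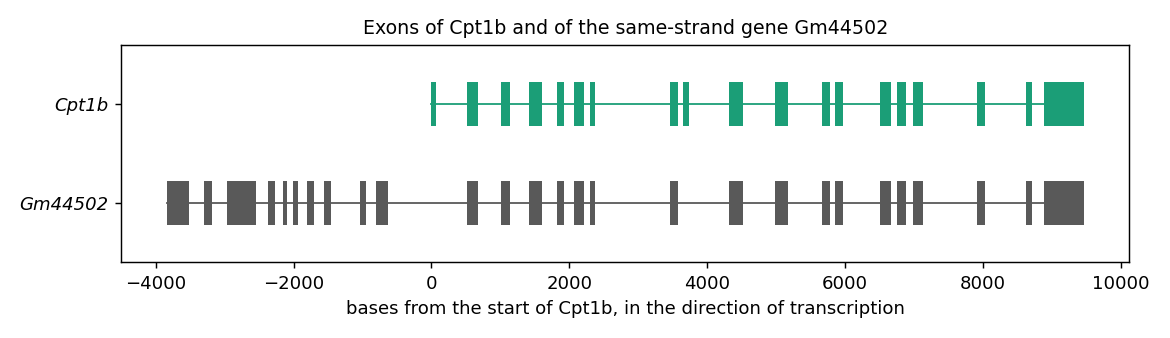
Exons (boxes) of the principal transcript of Cpt1b and of Gm44502, plotted by bases from the start of Cpt1b in the direction of transcription. The boxes coincide over most of Cpt1b, and 81.4% of the Cpt1b exon bases are shared.

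Of the other members of the shuttle, Slc25a20, the carnitine-acylcarnitine translocase of the inner membrane, stood at 186 and 153 in mitochondria and at 112 and 99 in rest (log2 fold change 0.67, SE 0.21, limma adjusted p = 0.12). Crat, the carnitine acetyltransferase, stood at 798 and 525 against 551 and 471, and Mlycd, which breaks down the CPT1 inhibitor malonyl-CoA, at 116 and 102 against 108 and 84. For Crat and Mlycd the groups overlapped, with log2 fold changes of 0.34 (SE 0.259) and 0.19 (SE 0.232).

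The acyl-CoA dehydrogenases catalyse the opening step of each round of beta oxidation and differ in the chain length they accept. All 5 had positive fold changes, with a median log2 fold change of 0.66, and none passed the test. Acadl, the long-chain enzyme, stood at 3606 and 2809 normalized counts in mitochondria and at 1810 and 1752 in rest (log2 fold change 0.84, SE 0.2, limma adjusted p = 0.0755). Acadm, the medium-chain enzyme, stood at 2959 and 2163 in mitochondria and at 1474 and 1335 in rest (log2 fold change 0.85, SE 0.22, limma adjusted p = 0.0881). In both genes the lower mitochondrial value was well above the higher rest value. Acads, the short-chain enzyme, stood at 329 and 253 against 206 and 161, and Acadsb, which acts on short branched chains, at 376 and 357 against 260 and 289. Their groups were also apart, with log2 fold changes of 0.66 (SE 0.236) and 0.42 (SE 0.168).

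Acadvl, the very-long-chain enzyme of the inner membrane, was the only one of the dehydrogenases whose groups overlapped, at 701 and 515 in mitochondria and 553 and 411 in rest (log2 fold change 0.33, SE 0.252). Of its exon bases, 42.9% overlap exons of Dvl2 on the opposite strand, so its level is uncertain if strand was not used in counting. The ratio of Acadm to Acadvl was 4.22 and 4.2 in mitochondria and 2.67 and 3.25 in rest. Per kilobase, Acadl was the most abundant dehydrogenase in either fraction, with 1674 normalized counts per kb in mitochondria and 930 in rest, and Acadsb the least abundant, with 60.3 and 45.1.

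The later steps are carried out by the trifunctional protein, whose alpha and beta subunits are encoded by Hadha and Hadhb, and by separate enzymes for shorter chains. Hadha stood at 3792 and 2638 in mitochondria and at 2969 and 2538 in rest. Hadhb stood at 1383 and 1046 in mitochondria and at 1143 and 1027 in rest. The groups overlapped in both genes, and the log2 fold changes of 0.20 (SE 0.248) for Hadha and 0.15 (SE 0.207) for Hadhb became -0.06 and -0.05 without mitochondrial replicate 1. Within a library the ratio of Hadha to Hadhb was 2.74 and 2.52 in mitochondria and 2.6 and 2.47 in rest, so the counted ratio was nearly the same in the 4 libraries.

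Hadha and Hadhb are divergent neighbours that are transcribed away from each other. The 85 bases between their outermost annotated starts, chr5:30155163-30155247 (GRCm38, + strand printed, RefSeq sequence of GRCm38.p6), are shown because this stretch lies upstream of both subunit genes. Its GC content is 69.4%, and the capitals mark the letters GGGCGG, searched on both strands, which it holds in 2 places on the + strand. These letters occur in 22.8% of stretches of the same length upstream of 32851 RefSeq starts.
Hadha-Hadhb: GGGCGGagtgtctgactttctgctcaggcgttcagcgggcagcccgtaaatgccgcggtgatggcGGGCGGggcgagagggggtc

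Hadhb also has a processed pseudogene, Gm13910 (chr2:108948806-108950233), that is 99.8% identical over 1425 bases, and 83.3% of the 75-base windows of the Hadhb coding sequence do not differ from it. Gm13910 was listed at 205 and 253 normalized counts in mitochondria and 183 and 223 in rest. Its log2 fold change of 0.17 (SE 0.214) was close to that of Hadhb.

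The other enzymes of the later steps had larger fold changes. Echs1, the short-chain enoyl-CoA hydratase, stood at 484 and 309 in mitochondria and at 232 and 188 in rest (log2 fold change 0.89, SE 0.282, limma adjusted p = 0.125). Acaa2, the mitochondrial thiolase, stood at 1328 and 926 against 803 and 614 (log2 fold change 0.66, SE 0.26). Hadh, the hydroxyacyl-CoA dehydrogenase for shorter chains, stood at 356 and 362 against 260 and 255 (log2 fold change 0.48, SE 0.16). In Hadh the replicates differed the least of these enzymes, and the groups were clearly apart, but the limma adjusted p was 0.136.

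All 4 auxiliary enzymes bring the double bonds of unsaturated fatty acids into the position the cycle needs. In all 4 both mitochondrial values lay above both rest values, which compares with 27.7% of all tested genes. None of the 4 passed the test, and their median log2 fold change was 0.93. Ech1, a dienoyl-CoA isomerase, stood at 1251 and 913 normalized counts in mitochondria and at 525 and 447 in rest (log2 fold change 1.14, SE 0.225, limma adjusted p = 0.0605). Eci1 and Eci2 are enoyl-CoA isomerases, the second of which also occurs in peroxisomes. Eci1 stood at 356 and 283 against 173 and 165 (log2 fold change 0.91, SE 0.198, limma adjusted p = 0.0673). Eci2 stood at 155 and 125 against 84 and 60 (log2 fold change 0.96, SE 0.267, limma adjusted p = 0.1). Decr1, the mitochondrial dienoyl-CoA reductase, had the smallest fold change of the 4, with values of 705 and 480 against 414 and 369 (log2 fold change 0.57, SE 0.243).

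The ETF takes electrons from all acyl-CoA dehydrogenases, and its alpha and beta subunits are encoded by Etfa and Etfb. Etfb stood at 194 and 133 normalized counts in mitochondria and at 49 and 52 in rest, which is a 3.14-fold difference just outside the threshold (log2 fold change 1.65, SE 0.266, limma adjusted p = 0.0511). Etfa stood at 1061 and 737 in mitochondria and at 517 and 406 in rest (log2 fold change 0.95, SE 0.255, limma adjusted p = 0.0941). Etfdh, the oxidoreductase that hands the electrons to ubiquinone, stood at 953 and 689 against 651 and 671 (log2 fold change 0.29, SE 0.215). The groups were apart in all 3 genes, with both mitochondrial values above both rest values, which compares with 27.7% of all tested genes.

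The counted ratios of the ETF mRNAs lay apart between the fractions in these 4 libraries. The ratio of Etfa to Etfb was 5.47 and 5.54 in mitochondria and 10.6 and 7.81 in rest, and the ratio of Etfa to Etfdh was 1.11 and 1.07 in mitochondria and 0.794 and 0.605 in rest. Neither ratio overlapped between the fractions, whereas that of Hadha to Hadhb did. The principal transcripts have 893 bases for Etfb, 1392 for Etfa and 2377 for Etfdh, beside 4017 for Hadha and 2048 for Hadhb. The part of transcript length in these ratios was not tested. The smallest p-value of an exact two-sided permutation test of 2 libraries against 2 is 1 in 3, so no test is given for a ratio. Etfb shares 58.2% of its exon bases with exons on the same strand, mostly those of Gm45233, so its level and ratios are uncertain in the same way as those of Cpt1b. Without Cpt1b, Hadhb and Etfb, the 3 members that share over 50% of their exon bases or 75-base words with another gene, the median log2 fold change of the remaining 29 was 0.62.

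Of the thioesterases, which release the free acid and coenzyme A from acyl-CoA, Acot13 rose and Acot2 had nearly the same level in both fractions. Acot13, which acts on long acyl chains at the mitochondria, stood at 546 and 469 normalized counts in mitochondria and at 160 and 188 in rest. It rose 2.91-fold (log2 fold change 1.54, SE 0.191, limma adjusted p = 0.0427), and its principal transcript, with 721 bases, is the shortest among the members. Acot2, a matrix enzyme, stood at 85 and 94 in mitochondria and at 91 and 86 in rest (log2 fold change 0.01, SE 0.205).

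Acot2 has a close cytosolic paralog, Acot1, next to it on chromosome 12 (chr12:84009490-84018371), which is 95.8% identical over 1223 aligned bases. Of the 75-base windows of that alignment, 37.8% do not differ. The window with the most differences, coding bases 935 to 1009 of Acot2, is shown because it is where reads of the 2 genes separate best, with the differing bases in capitals.
Acot2: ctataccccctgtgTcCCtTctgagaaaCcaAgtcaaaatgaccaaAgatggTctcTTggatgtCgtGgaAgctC
Acot1: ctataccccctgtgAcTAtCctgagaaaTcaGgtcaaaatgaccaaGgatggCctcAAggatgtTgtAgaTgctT

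Acot1 was listed at 58 and 64 normalized counts in mitochondria and at 27 and 20 in rest (log2 fold change 1.35, SE 0.293, limma adjusted p = 0.0669). The ratio of Acot2 to Acot1 was 1.47 in each mitochondrial library, and 3.37 and 4.3 in rest, so the paralogs shifted against each other between the fractions. Low counts limit the precision of this ratio. In mitochondria, the values of Acot1 correspond to about 15 and 25 reads and those of Acot2 to about 22 and 37.

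The 3 genes of ketone body use had similar fold changes of 0.61 to 0.72 on the log2 scale, and none passed the test. Oxct1, the transferase that activates acetoacetate and sets the capacity for ketone use, stood at 2847 and 2441 normalized counts in mitochondria and at 1623 and 1836 in rest (log2 fold change 0.61, SE 0.184, limma adjusted p = 0.114). Acat1, the thiolase that splits acetoacetyl-CoA, stood at 1034 and 1079 against 655 and 624 (log2 fold change 0.72, SE 0.155, limma adjusted p = 0.0658). Both genes had their groups clearly apart. Bdh1, the inner membrane dehydrogenase of 3-hydroxybutyrate, stood at 93 and 202 in mitochondria and at 68 and 111 in rest. Replicate 2 of Bdh1 was higher in both fractions, the groups overlapped, and the log2 fold change of 0.65 had an SE of 0.467. The ratio of Oxct1 to Acat1 was 2.75 and 2.26 in mitochondria and 2.48 and 2.94 in rest and overlapped.

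**Figure D3:**
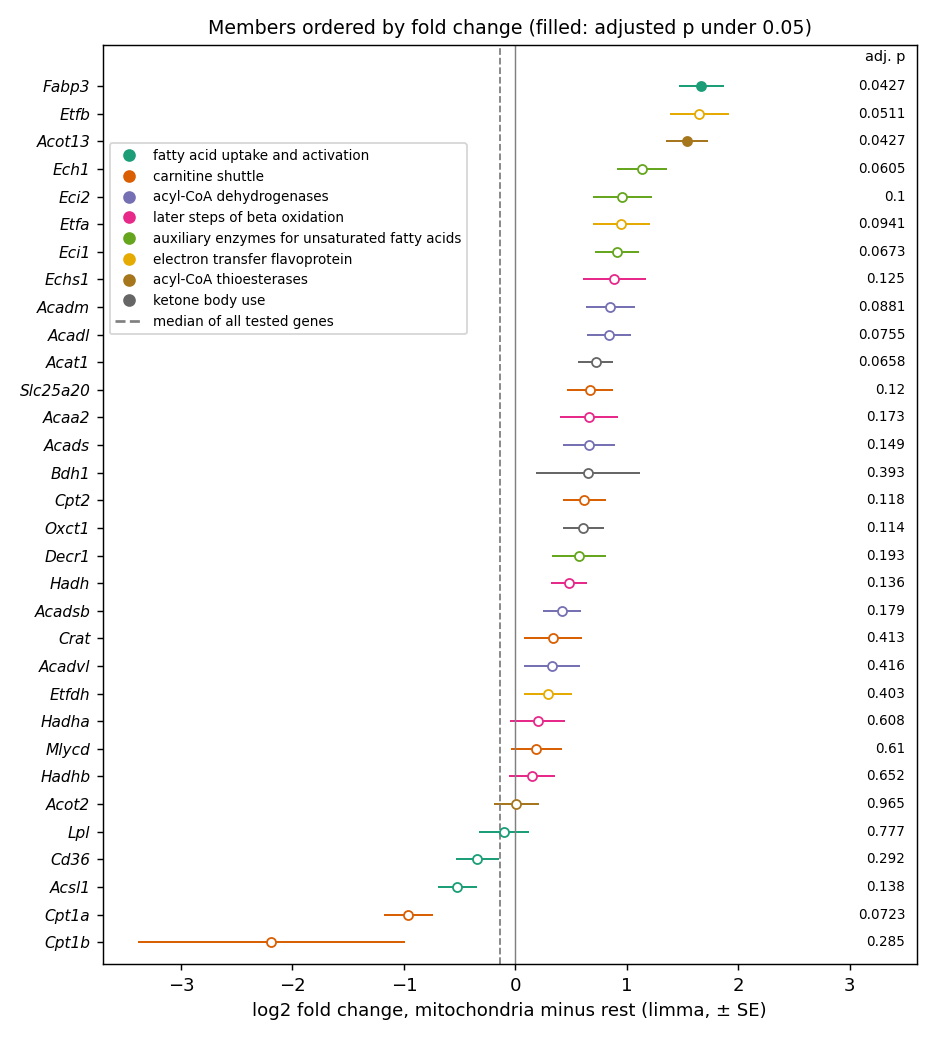
Log2 fold change of each member, mitochondria minus rest, from limma, with its standard error as a bar and its adjusted p-value at the right. Filled points are the 2 members under 0.05, Fabp3 and Acot13, and the dashed line marks the median of all tested genes at -0.14, which 28 members exceed.

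The fold changes of the members were ordered by the length of their transcripts. The 6 members with a principal transcript under 1500 bases, Fabp3, Eci1, Ech1, Etfa, Etfb and Acot13, had a median log2 fold change of 1.34 and included both members that rose. The 14 members of 1500 to under 2500 bases had a median of 0.64, the 7 of 2500 to under 4000 bases one of 0.57 and the 5 of 4000 bases or more one of 0.20. The last class held Lpl, Cpt1a, Crat, Acadsb and Hadha. Over the 32 members, Spearman's rho between length and log2 fold change was -0.77 and Pearson's r with log2 length was -0.64. These are descriptions across genes measured in the same 4 libraries.

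The same order held for protein-coding nuclear genes as a whole. Their median log2 fold change was 0.83 under 1500 bases (1313 genes), 0.16 at 1500 to under 2500 bases (2185 genes), -0.16 at 2500 to under 4000 bases (3163 genes) and -0.47 at 4000 bases or more (3950 genes). Spearman's rho was -0.43 over these 10611 genes. Over the 5243 of them with a mean above 50 normalized counts it was -0.58, and Pearson's r with log2 length was -0.61. Of the 204 genes called higher among the 10611, 151 had a transcript under 1500 bases. The members had a median length of 2148 bases and the 10611 genes one of 3294 bases. Within each class the median of the members lay above that of all coding genes, and 26 of 32 members lay above the median coding gene of their own class. The 6 others were Hadhb, Acot2, Cd36, Acsl1, Cpt1b and Cpt1a. RNase treatment and the adjusted fragmentation belonged to the mitochondrial samples, so the preparation and the fraction cannot be told apart in this relation.

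**Figure D4:**
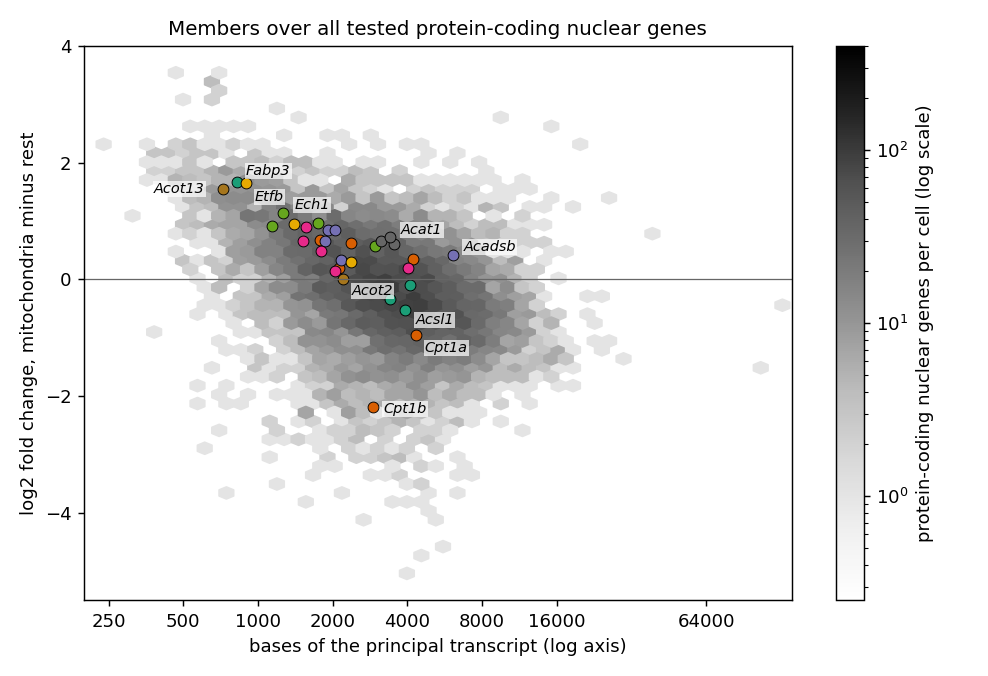
Log2 fold change of the members (coloured by role as in the plot of fold changes) against the bases of their principal transcript on a log axis, over the density of the 10611 tested protein-coding nuclear genes (grey). Acot13, Fabp3 and Etfb sit at the short end with 1.54 to 1.67, and Cpt1a at the long end with -0.96.

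By the gene ontology terms in the deposited table, 30 of the 32 members are annotated to the mitochondrion, and the exceptions are Lpl and Fabp3. The 12 members annotated to the matrix had a median log2 fold change of 0.66, close to the 0.64 of the 179 tested coding genes with this term. The 4 members annotated to the outer membrane, Acsl1, Cpt1a, Cpt1b and Hadhb, had a median of -0.74, whereas the 108 tested coding genes with this term had one of 0.07. None of these 4 members had both mitochondrial values above both rest values, which compares with 27.7% of all tested genes. The set is small, the level of Cpt1b is uncertain, and Cpt1a and Hadhb are also annotated to the inner membrane. Their median transcript length was 3396 bases, against 2048 bases for the members of the matrix. The 13 members annotated to the inner membrane had a median of 0.48, below the 0.68 of the 308 tested coding genes with this term. The member called higher with the largest fold change, Fabp3, thus carries no mitochondrial term.

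A list of 80 other genes of fatty acid and ketone metabolism, of which 75 were tested, was examined beside the members. Of these, 2 rose (2.67%) and 1 fell (1.33%), which is near the 2.16% and 1.39% of all tested genes. The median log2 fold change of the list was -0.01. With any single library left out, where no gene of the whole table was called, the log2 fold changes were 1.91 to 2.25 for Dbi, 1.1 to 1.18 for Scp2 and -1.61 to -1.26 for Acacb. Dbi, which encodes the acyl-CoA binding protein, stood at 263 and 207 normalized counts in mitochondria and at 55 and 54 in rest (log2 fold change 2.08, SE 0.218, limma adjusted p = 0.0427). Scp2, which encodes the peroxisomal sterol carrier protein and thiolase, stood at 453 and 444 against 197 and 209 (log2 fold change 1.14, SE 0.162, limma adjusted p = 0.0469). Acacb, the acetyl-CoA carboxylase of the outer mitochondrial membrane whose product malonyl-CoA inhibits CPT1, stood at 550 and 431 against 1436 and 1217 and fell by 1.44 on the log2 scale (SE 0.205, limma adjusted p = 0.0469). Acacb was the only called gene of the 4 tested in carnitine supply and malonyl-CoA, all of which had negative fold changes, as had 6832 of the 12150 tested genes. The median of the 4 was -0.95, and their median transcript length was 5925 bases.

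Among the other listed genes with a mean above 50 normalized counts, high fold changes that did not pass the test belonged to the matrix enzymes Mcee, with 174 and 97 against 43 and 39 (log2 fold change 1.64), and Hsd17b10, with 136 and 148 against 60 and 50 (1.36). The lowest belonged to Ppargc1b, a coactivator of mitochondrial genes, with 66 and 87 against 229 and 190 (log2 fold change -1.45), the lipase Mgll with 128 and 117 against 369 and 248 (-1.30), and the lipid droplet protein Plin4 with 356 and 156 against 639 and 457 (-1.19). Of the 12 regulators of the pathway, none was called, and the median was -0.27. Over the 75 genes Spearman's rho between length and log2 fold change was -0.62, and their median length was 2996 bases.

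The direction of the members depends on how the libraries are scaled, since most reads of the mitochondrial libraries come from the mitochondrial chromosome. With scaling to library totals, the median of all tested genes was -3.93 and that of the members -3.36, and all 32 members were called lower, as were 12022 of all tested genes. When the total was taken without the mitochondrial chromosome, the medians were -0.98 and -0.25, and 3 members were called lower and 0 higher, against 3819 lower and 129 higher of all tested genes, whereas as deposited 262 were called higher and 169 lower. Relative to the median gene, the median member was 0.75 higher as deposited, 0.56 with totals and 0.73 with totals without the mitochondrial chromosome. The statements above are relative to the bulk of nuclear genes and not to the whole RNA of a fraction.

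Markers of other cells differed between the libraries too. The 6 fibroblast markers summed to 8382 and 3550 normalized counts in mitochondria and 2236 and 3180 in rest, and the 5 macrophage markers to 875 and 358 against 244 and 329. All 11 had positive fold changes, and none passed the test. Mitochondrial replicate 1, which held the higher value in 26 of 32 members, held the higher sum of both lists and also of the 8 cardiomyocyte markers, with 290431 against 215901. Of the 4 smooth muscle and pericyte markers, Myh11 fell, with 43 and 61 in mitochondria and 380 and 800 in rest (log2 fold change -3.40, limma adjusted p = 0.0427). Rgs5 stood at 744 and 913 against 1639 and 1426. The groups overlapped in Acta2, with 93 and 362 against 208 and 574. They also overlapped in Pdgfrb, with 492 and 258 against 261 and 238, and its log2 fold change was positive at 0.51. Of 8 cardiomyocyte markers, 6 had positive fold changes and Myl3 rose (log2 fold change 1.61, limma adjusted p = 0.0469), while Myh6 had one of -0.20 and Ryr2 one of -1.35. All 5 red blood cell genes had negative fold changes, and their sums were 50 and 341 in mitochondria and 824 and 440 in rest. The principal transcript has 937 bases for Myl3, 6113 for Myh6 and 16814 for Ryr2. Median transcript lengths were 1336 bases for the cardiomyocyte, 5456 for the fibroblast and 3238 for the macrophage list. They were 4752 bases for the smooth muscle and pericyte list and 699 for the red blood cell list. The part of transcript length in the markers, and of these lists in the values of the members, was not tested.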

How the data were processed

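RNA-seq of isolated mitochondria (2 libraries) and of the tissue minus mitochondria (2 libraries) from mouse heart was analysed. Per the labels, 10 ng of total RNA entered a Pico Input Mammalian library. The submitters' processing notes name Trimmomatic 0.39, STAR 2.7.10a, featureCounts 2.0.2 and DESeq2 1.30.1 with mm10, and the paper's methods give other versions of the last 3. The deposited signal of a gene is a count of reads on its exons that the authors divided by a size factor per library and rounded. The authors left out reads that overlapped more than 1 gene or had more than 1 alignment, and the use of strand is not given in the sources used here.

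The members, their roles and the lists of other pathway genes and markers were chosen with earlier results of these data known. All 32 members are named, and of the other pathway genes those under the threshold, plus the 3 highest and 3 lowest fold changes among those with a mean above 50 normalized counts, of which 1 is not reported here. Genes were tested if 2 or more libraries held 10 or more normalized counts, which left 12150. For these, log2 of the value plus a pseudocount of 1 was compared in limma 3.58.1 (R 4.3.3) with a mean-variance trend and without the replicate number, with Benjamini-Hochberg adjustment over the 12150 genes and a threshold of 0.05. The fit was tested on simulated data. Fold changes on this scale understate those of low genes. The number of normalized counts per read was taken from the spacing of the values, of which 100% and 99.9% were whole reads in the mitochondrial libraries. It is under 1 in the rest libraries, so counts could not be restored for a count test. Floors cover counting error only. Transcript lengths, exon overlaps and shared 75-base words came from GENCODE M21 (15736 of 15746 genes matched), and promoter windows, found for 25 members, from RefSeq (GRCm38.p6). Alternatives changed the scaling, filter, pseudocount, trend, replicate block and libraries. Columns of gene annotation were used only for positions and gene ontology terms.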

Additional observations from a re-analysis of the deposited data

How the results depend on the processing

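The median log2 fold change of the members was 0.48 to 0.71 when a library was left out, and 0.60 to 0.63 under every alternative but 2: it was -3.36 with scaling to library totals, where all 32 members, 75 other pathway genes and 12022 of all genes were lower and 0, 0 and 2 higher, and -0.25 with totals without the mitochondrial chromosome, where 3, 22 and 3819 were lower and 0, 1 and 129 higher. These shifts follow from the scaling itself. With each library left out, 0 members, 0 other pathway genes and 0 of all genes were called in either direction, while at an unadjusted p under 0.05 between 4 and 16 members were higher. In these fits the lone sample of a fraction is assumed to vary like the other fraction. At a pseudocount of 0.1 no gene was called (17 members were higher at an unadjusted p under 0.05), so each of the 6 counts was 0, and without the trend no member or other pathway gene was called and 24 of all genes were higher. With genes of a mean above 50 only, 8 members were higher and 1, Cpt1a, lower, as were 6 and 4 other pathway genes and 790 and 670 of 5556 genes. With a pseudocount of 10, 4 members were higher, 3 other pathway genes lower, and 536 and 580 of all genes called. With TMM scaling, 4 members were higher, 2 other pathway genes lower, and 443 and 316 of all genes called. Without a filter 630 of all genes were lower. The cause was not tested in these. With the replicate block, 5 members were higher (Fabp3, Acot13, Ech1, Etfa and Etfb), 4 other pathway genes were higher and 3 lower, and 470 and 309 of all genes called. Whether same-numbered libraries come from the same hearts is not labelled, and the correlation of their deviations, r = 0.13 across genes, does not settle it. Of 447 fold changes of single members under an alternative, 8 turned sign: Hadhb (-0.04 with totals, -0.05 to 0.35 with a library left out), Hadha (-0.06 to 0.47 with a library left out), Lpl (-0.29 to 0.08) and Acot2 (-0.12 with totals, -0.00 with totals without the mitochondrial chromosome, -0.06 to 0.09 with a library left out and -0.03 without rest replicate 2), where values with totals are relative to the shift of the median gene. Leaving out the 3 members that share most of their sequence, an alternative chosen after seeing the data, gave 2 higher, 0 lower and a median of 0.62.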
